A study of Mus musculus with 8 samples.

Results

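The genes described here handle heme and iron in macrophages sorted from mouse breast tumours. They are 10 mouse genes, Hmox1, Blvra, Blvrb, Slc40a1, Slc11a1, Slc11a2, Fth1, Ftl1, Tfrc and Ireb2, chosen by name and found through the accession that the array files give for each probe. They had 12 probes, all 10 genes passed the filter on dim probes, and they stand among 20882 genes tested. The macrophages came from breast tumours that grew in C57BL/6 hosts from orthotopically implanted PyMT cells, breast cancer cells named for the polyoma virus oncogene that drives them. The KO hosts lacked ATF3, a transcription factor induced by stress, and the WT hosts were wild type. Both genotypes carried the same kind of tumour, which was removed about 21 days after implantation, and leukocytes bearing the macrophage protein F4/80 were sorted from it. Each genotype has 4 samples, numbered 1 to 4, each on its own 1-colour array. The deletion belonged to the host, so the labels do not tie it to macrophages. The labels give neither the age of the mice nor whether a sample is 1 mouse, so the p-values cover only the spread among samples, which may be technical.

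Macrophages take up heme mainly by engulfing old or damaged red cells. Heme oxygenase opens the heme ring and releases iron, carbon monoxide and biliverdin, and biliverdin reductases turn biliverdin into bilirubin. The iron is stored in ferritin or leaves through ferroportin, while iron bound to transferrin enters through the transferrin receptor. Iron regulatory proteins adjust several of these messenger RNAs after transcription, by binding them when iron is scarce.

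All levels below are log2 of the processed signal relative to the array's 75th percentile, so a level of 0 is the 75th percentile itself and 1 unit is a 2-fold step. Levels of different probes are not comparable with each other, and precision is limited by how many arrays there are. The 75th percentile lay between 619 and 927 intensity units, well-above-background marks covered 63.7% to 68.0% of spots and 0 were saturated. The sort markers Adgre1, which encodes F4/80, and Ptprc, which encodes CD45, were well measured in every sample, with levels of 3.47 to 4.68 and 3.70 to 4.91 in KO samples against 3.33 to 4.70 and 3.78 to 4.94 in WT samples. Atf3 itself read 5.52, 4.86, 4.96 and 4.88 in KO samples, against 4.92, 4.99, 4.78 and 4.51 in WT samples, so its probe did not show the deletion. The sources used here do not place that probe inside or outside the deleted stretch, and it therefore does not check the labels. KO and WT, and every direction below, refer to the genotypes as labelled.

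Promoter sequence was at hand for 7 of the 10 genes, in windows of 250 bases before to 50 bases after a start site, from RefSeq on the GRCm38.p6 build. Stretches of 30 bases from 3 of them are shown because they hold short motifs tied to ATF3, oxidative stress or hypoxia. Capitals mark the motifs, and each is written 5′ to 3′ on the plus strand.
Tfrc, chr16:32608889-32608918: ggtgtACGTGcggaaggaagTGACGtagat
Fth1, chr19:9982644-9982673: ccagcgctcgccTGACGcaggatcccgcta
Blvra, chr2:127070598-127070627: cacgggaattGCTCGGTCAaggctccgcct
The letters TGACG are one arm of the site that ATF and CREB factors bind, and ACGTG is the core of the hypoxia response element. Both stand in the Tfrc window, around its start site. The capitals of Blvra are the opposite strand of TGACNNNGC, the core of the antioxidant response element. Both strands were searched in 32851 windows of all genes. TGACG stood in 20.8% of them, ACGTG in 19.6% and TGACNNNGC in 12.4%, so each is common. Of the 10 windows of these genes, TGACG stood in 3, ACGTG in 3 and TGACNNNGC in 1, with overlapping Tfrc windows counted separately. ACGTG also stood in a window of Blvrb, which is not shown. The full cAMP response element, TGACGTCA, which holds TGACG on both strands, stood in 1.79% of all windows, and the AP-1 site TGANTCA in 7.81%. Neither was in any of the 10 windows of these genes. Hmox1, Slc40a1 and Slc11a2 had no window.

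Between genotypes, none of the 10 heme and iron genes rose or fell by the test used. The test, limma with Benjamini-Hochberg adjustment over all 20882 genes, called 0 of the 10 (adjusted p = 0.9998 for each) against a background of 0% of all genes. At an unadjusted p under 0.05 it counted 0 of the 10, against 3.34% of all genes. In none of the 10 were the 4 KO samples apart from the 4 WT samples, as they were in 2.11% of all genes. The differences, KO minus WT, were above 0 in 3 genes and below 0 in 7, with a median of -0.03 against -0.0075 over all genes. With normexp background correction, which moved the median of all genes to -0.14, 7 were above 0 and 3 below. This does not show that the levels are equal. For 7 of the 10 the 95% interval lay within a 2-fold change either way, as it did for 51.4% of all genes. The intervals of Hmox1, Blvrb and Slc40a1 reached beyond it. These intervals, like all given below, are from limma without the replicate number as a block, so they include the spread between numbers. Markers of some other cells leaned by genotype without a call. Of 12 T cell genes 10 were higher in KO samples, with sums of 24.1, 28.7, 11.1 and 18.7 in KO samples 1 to 4, against 16.1, 22.5, 9.33 and 15.7 in WT samples. Of 9 NK and cytotoxic genes 8 were higher, with sums of 31.3, 38.0, 9.91 and 16.5 in KO samples, against 18.6, 20.1, 7.39 and 12.1 in WT samples. All 8 endothelial genes tested were lower, with sums of 2.17, 2.38, 2.03 and 4.23 in KO samples, against 3.56, 7.52, 2.05 and 8.62 in WT samples. The ranges overlapped, while each pair of same-numbered samples leaned the same way. With the replicate number as a block, limma called 0 of these genes. The unadjusted p was under 0.05 in 6 of 12 T cell, 6 of 9 NK and cytotoxic and 4 of 8 endothelial genes. The share of all genes was 7.55%. Among these T cell genes Cd6 and Cd4 went against the lean. Cd6 was lower in KO samples, by -0.62 (blocked limma, unadjusted p = 0.0330). Cd4 was lower by -0.44 (blocked limma, unadjusted p = 0.203), and Cd3e was nearly level, at 0.05. The sums are linear signals relative to the 75th percentile, and their part in the differences below was not tested.

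**Figure D1:**
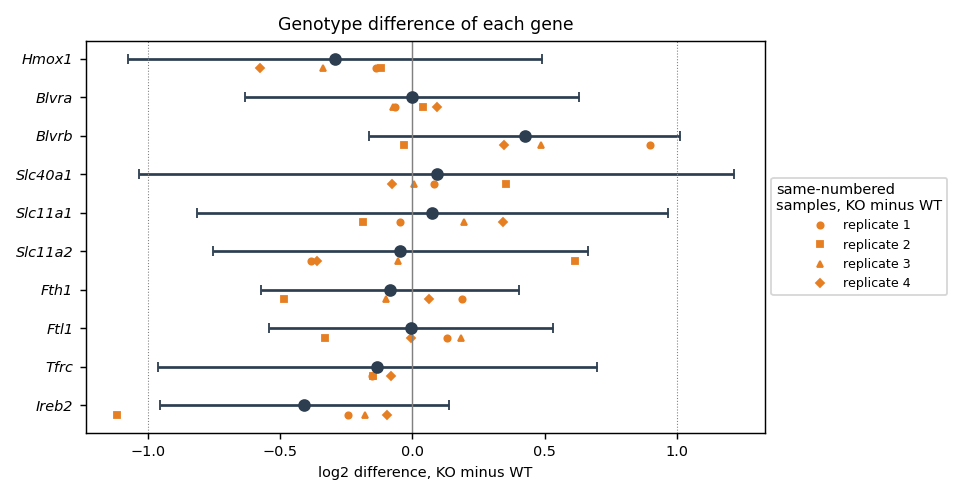
Difference of each gene between genotypes, KO minus WT, on the log2 scale. Dark circles are the means with their 95% intervals from limma without a block (4 samples per genotype). Orange marks are the differences between samples of the same number, and dotted lines mark a 2-fold change. All 10 intervals include 0, and Hmox1, Tfrc and Ireb2 have all 4 orange marks below 0, which for Hmox1 and Tfrc did not hold with normexp background correction.

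Heme breakdown begins with Hmox1, the inducible heme oxygenase (chr8:75093618-75100593, GRCm38.p6, as for all gene positions here). Its levels were 5.69, 5.05, 5.84 and 4.72 in KO samples 1 to 4, against 5.83, 5.16, 6.18 and 5.30 in WT samples 1 to 4. Samples 3 and 1 were the highest in both genotypes, samples 2 and 4 the lowest, and the groups overlapped. The mean was 5.33 ± 0.53 in KO samples and 5.62 ± 0.47 in WT samples (SD, n = 4 each), a difference of -0.29 (SE 0.34, 95% interval -1.07 to 0.49). Each KO sample was below the WT sample of its number, by -0.14, -0.12, -0.34 and -0.58. The range of the 4 KO samples was 1.12, larger than any of these differences, but it is a range between numbers. With the replicate number as a block, limma gave an SE of 0.14 (unadjusted p = 0.0877, adjusted p = 0.708).

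Blvra encodes biliverdin reductase A, which makes the bilirubin of adult mammals (chr2:127070629-127097084). It read 2.11, 1.90, 2.60 and 1.83 in KO samples, against 2.18, 1.86, 2.68 and 1.74 in WT samples. Same-numbered samples lay within 0.09 of each other, and sample 3 stood highest in both genotypes. The means were 2.11 ± 0.35 in KO samples and 2.11 ± 0.42 in WT samples, with an interval of the difference of -0.63 to 0.63.

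Blvrb encodes biliverdin reductase B, which also reduces flavins and is abundant in red cells (chr7:27447978-27465981). It had the largest positive difference of the 10 genes. KO samples read 1.97, 1.63, 2.32 and 1.59, against 1.07, 1.67, 1.84 and 1.24 in WT samples. The KO sample was higher in numbers 1, 3 and 4, and the pair numbered 2 was nearly level. The mean was 1.88 ± 0.34 in KO samples and 1.45 ± 0.36 in WT samples, a difference of 0.42 or 1.34-fold (SE 0.25, interval -0.16 to 1.01), which limma did not call (unadjusted p = 0.134). Of 16 red cell marker genes 11 had a probe and 5 were tested, and 0 of these 5 were higher on average in KO samples. Their summed signal was 22.2, 18.8, 2.36 and 13.1 in KO samples 1 to 4, against 14.2, 50.2, 4.39 and 5.37 in WT samples. The sum was thus higher in KO samples in numbers 1 and 4, and lower in numbers 2 and 3. Its part in the Blvrb difference was not tested. The red cell membrane and lineage genes Rhag, Epb42, Klf1 and Gata1 were among those too dim to be tested.

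Slc40a1 encodes ferroportin, the only known exporter of iron from mammalian cells (chr1:45908070-45926532). Its levels were 0.75, 0.32, 1.92 and 0.67 in KO samples, against 0.67, -0.03, 1.92 and 0.75 in WT samples. Sample 3 stood far above the rest in both genotypes and sample 2 was the lowest in both. The means were 0.92 ± 0.70 in KO samples and 0.82 ± 0.81 in WT samples, and the difference of 0.09 had a wide interval, -1.03 to 1.22. Its SE was 0.49 without a block and 0.13 with the replicate number as a block.

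Slc11a1, or NRAMP1, pumps iron and manganese out of phagosomes and marks phagocytes (chr1:74375014-74386057). C57BL/6 mice carry a variant of it that is known to lose function, so its RNA does not stand for its activity in these hosts. KO samples read 3.20, 2.61, 3.17 and 2.11, against 3.25, 2.80, 2.97 and 1.77 in WT samples. In this scaling the order was the same in both genotypes, with sample 1 highest and sample 4 lowest. With normexp sample 3 was the highest in both genotypes, and with scaling by bright probes it was the highest KO sample. The means were 2.77 ± 0.52 in KO samples and 2.70 ± 0.65 in WT samples, with an interval of -0.82 to 0.97 for the difference.

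Slc11a2, or DMT1, carries iron out of endosomes after transferrin uptake (chr15:100387898-100424209). It was dim and had 2 probes. The brighter probe read -2.08, -1.12, -1.04 and -1.86 in KO samples, against -1.70, -1.73, -0.98 and -1.50 in WT samples, a difference of -0.05 (interval -0.75 to 0.66). The dimmer probe read -2.52, -3.57, -2.73 and -2.78 in KO samples, against -2.94, -2.90, -2.30 and -1.57 in WT samples, a difference of -0.47 (interval -1.33 to 0.38). Sample 3 was the highest of both genotypes on the brighter probe only, and the groups overlapped on both probes.

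Ferritin is a shell of heavy chains, from Fth1, which oxidise iron, and light chains, from Ftl1, which help to lay down the iron core. Fth1 (chr19:9980600-9985111) read 6.42, 5.71, 6.04 and 5.84 in KO samples, against 6.23, 6.20, 6.14 and 5.78 in WT samples. Ftl1 (chr7:45457944-45459886) read 7.85, 7.28, 7.71 and 7.11 in KO samples, against 7.72, 7.61, 7.52 and 7.12 in WT samples. Sample 1 was the highest for both chains in both genotypes in this scaling, and the spread was narrow. With quantile normalization sample 3 was the highest for Ftl1 in both genotypes and for Fth1 in WT samples. With normexp WT sample 2 was the highest and WT sample 1 the lowest for both chains. In the deposited table KO sample 3 was the highest KO sample for Ftl1. The difference was -0.08 for Fth1 (interval -0.57 to 0.40) and -0.0048 for Ftl1 (interval -0.54 to 0.53). Both genes have many near-identical pseudogene copies in the mouse genome, and whether these probes also bind copies was not tested. Ferritin is set largely at translation, which arrays do not see.

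Tfrc encodes the transferrin receptor, through which cells take up iron (chr16:32608896-32632794). It read 2.63, 3.19, 2.48 and 3.69 in KO samples, against 2.78, 3.34, 2.63 and 3.77 in WT samples. Both genotypes had the same order, sample 4 highest, then 2, 1 and 3. The mean was 3.00 ± 0.55 in KO samples and 3.13 ± 0.52 in WT samples, a difference of -0.13 (interval -0.96 to 0.70). The KO sample was lower in each of the 4 pairs, by -0.15, -0.15, -0.15 and -0.08.

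Ireb2 encodes IRP2, the iron regulatory protein that is degraded when iron is plentiful and that protects Tfrc messenger RNA when it is scarce (chr9:54862658-54912534). Its brighter probe read -1.29, -2.11, -1.35 and -1.62 in KO samples, against -1.04, -0.997, -1.18 and -1.53 in WT samples. KO sample 2 was the lowest, and the groups overlapped through WT sample 4. The mean was -1.59 ± 0.38 in KO samples and -1.19 ± 0.24 in WT samples, a difference of -0.41 or 0.753-fold (SE 0.24, interval -0.95 to 0.14, unadjusted p = 0.122), the largest negative one of the 10. The dimmer probe, well above background on 6 of 8 arrays, differed by -0.55, with single values between -6.10 and -3.73 in KO samples and between -5.81 and -3.25 in WT samples.

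Hmox1, Tfrc and, on its brighter probe, Ireb2 were thus lower in KO samples in all 4 pairs, 3 of 10 genes, while 9.63% of all genes were. The dimmer Ireb2 probe was lower in 2 of the 4 pairs. The brighter one kept all 4 under each other scaling tried, whereas Hmox1 was lower in 3 of the 4 pairs with normexp, quantile normalization or the deposited table, and Tfrc in 3 with normexp, where its mean difference was 0.010. In the scaling used here none of the 10 was higher in all 4 pairs, as 7.52% of all genes were. With normexp Blvrb was higher in all 4, and with quantile normalization Ftl1 was lower in all 4. With the replicate number as a block, limma again called 0 of the 10 (0% of all genes). It counted 0 of the 10 at an unadjusted p under 0.05, against 7.55% of all genes. The block lowered the SE of each of the 10. For Tfrc it fell from 0.36 to 0.11, but for Ireb2 only from 0.24 to 0.22. The smallest unadjusted p of this blocked test was 0.0761, for Blvrb (adjusted p = 0.698).

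**Figure D2:**
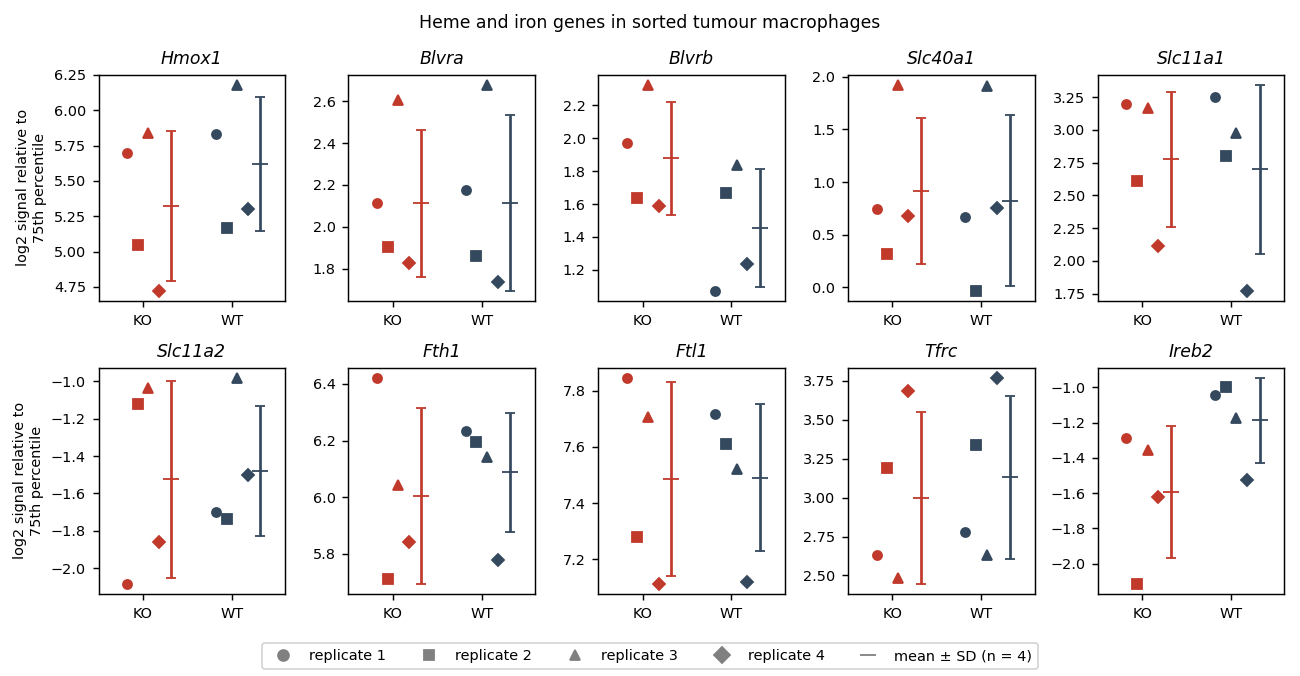
Level of each gene in each sample, as log2 signal relative to the array's 75th percentile, with KO samples left of WT samples in each panel and the mean ± SD (n = 4) beside the points. The groups overlap in all 10 panels, with Blvrb and Ireb2 the furthest apart.

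In 8 of the 10 genes most of the spread went with the sample number. The number took 98.9% of the sum of squares in Blvra, 98.0% in Slc40a1, 97.9% in Tfrc and 95.3% in Slc11a1. Hmox1 and Ftl1 followed with 85.8% and 85.9%. The lowest shares were 47.0% in Blvrb and 27.5% in Ireb2. The same 8 were above the median share of all genes, 66.3%, while the number's part of the degrees of freedom is 42.9%. What samples of 1 number share is not in the labels. Slide 1 carried the samples numbered 1 and 2, and slide 2 carried the others, of both genotypes. A limma F test for number, added after the values were seen, called 2 of the 10, Slc40a1 (adjusted p = 0.0355) and Tfrc (adjusted p = 0.0431), against 7.25% of all genes. At an unadjusted p under 0.05 it counted 5 of the 10, against 29.5% of all genes. Neither was called with normexp or with no filter on dim probes. With any 1 of the 8 samples left out neither was called, and their adjusted p lay between 0.0542 and 0.229 for Slc40a1 and between 0.0688 and 0.226 for Tfrc.

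**Figure D3:**
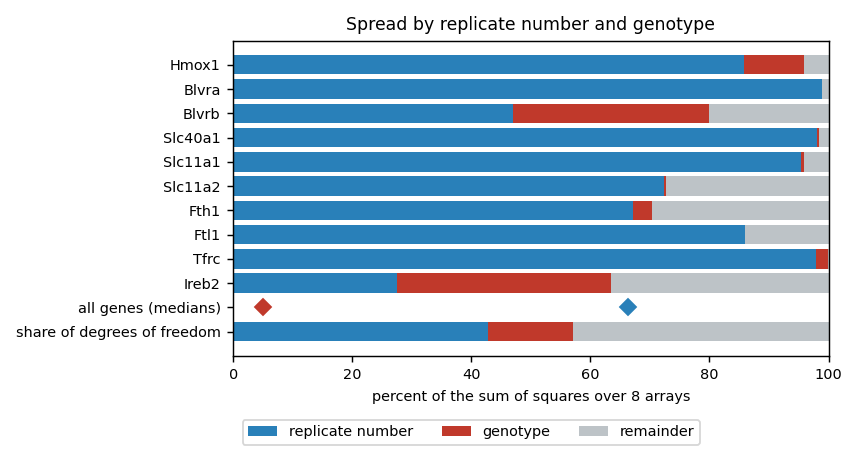
Share of each gene's sum of squares over the 8 samples that goes with sample number, with genotype and with the remainder, in percent. Number holds the largest part in every gene but Ireb2, where the remainder holds 36.6%, and genotype's share is highest in Ireb2, 35.9%, and Blvrb, 32.9%.

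Hmox1, Blvra, Blvrb and Slc40a1, of heme breakdown and iron export, each had their highest KO value and their highest WT value in number 3. They did so under each of the 4 other scalings too, the deposited table included. The share of all genes that peak in number 3 was not counted, so the peak does not set these genes apart. Across genes, KO and WT sample 3 deviated together from their group means, at a correlation of 0.70. Averaged over both genotypes, Slc40a1 differed 3.43-fold between its highest and lowest number and Slc11a1 2.43-fold. Tfrc ran the other way, highest in number 4 under each scaling that gave it a value and lowest in number 3, except that WT sample 1 was the lowest with normexp. Its range was 2.25-fold.

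Markers of cell types moved along these numbers too. The summed linear signal of 12 macrophage genes was 452, 367, 511 and 265 in KO samples 1 to 4, against 444, 403, 511 and 258 in WT samples 1 to 4, in the order 3, 1, 2, 4 in both. That of 9 tumour epithelial genes was 36.1, 76.1, 13.4 and 111 in KO samples, against 37.1, 80.0, 12.7 and 106 in WT samples. In this scaling Tfrc had the order of the epithelial markers, 4, 2, 1, 3, in both genotypes, and Blvra had the order of the macrophage markers. None of the other heme and iron genes of the 10 had either order in both genotypes. With normexp Blvra was lowest in KO sample 2 and WT sample 1, and in the deposited table in KO sample 2. The share of all genes with these orders was not counted. Neutrophil genes summed to 8.59 in KO and 9.70 in WT sample 3, against 49.4 to 59.0 in the other KO samples and 47.6 to 61.2 in the other WT samples. Fibroblast genes were lowest in number 3 as well, at 8.99 in KO and 8.49 in WT, against 20.0 to 54.1 in the other KO samples and 21.3 to 42.2 in the other WT samples. The summed signal of the 5 red cell genes was lowest in number 3 too, at 2.36 in KO and 4.39 in WT. It was 13.1 to 22.2 in the other KO samples and 5.37 to 50.2 in the other WT samples. Not each of the 5 genes followed the sum. Averaged over both genotypes, Ermap was highest in number 3, at -0.39. Slc4a1 was lowest in number 1, at -4.55, against -3.74 in number 3. The T cell, NK and endothelial sums given above were likewise lowest there in both genotypes. Cell cycle genes are given here because Tfrc is high in dividing cells. They summed to values between 28.5 and 37.4 in KO samples and between 29.9 and 38.1 in WT samples. The highest sum of each genotype was in number 3, where Tfrc was lowest. In number 4, where Tfrc was highest, the sums were 31.5 in KO and 29.9 in WT. The lowest KO sum was in number 1. The part of these cells in the levels above was not tested, and in bulk samples fewer cells of a type and less RNA per cell cannot be told apart.

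**Figure D4:**
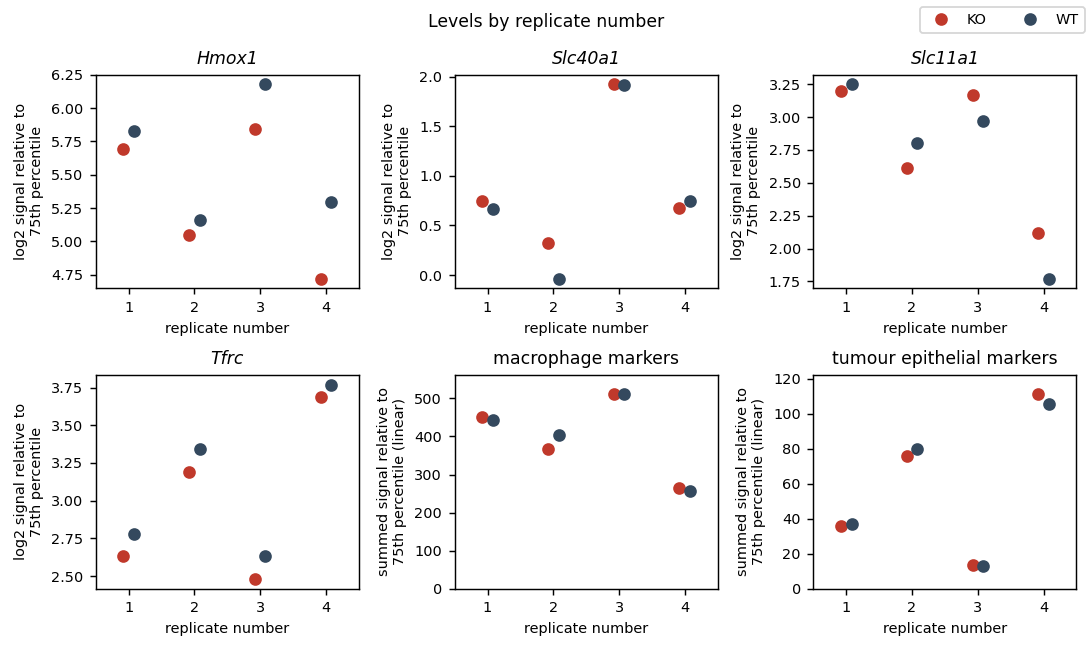
Level of 4 genes (log2 signal relative to the 75th percentile) and summed linear signal of macrophage and tumour epithelial markers, by sample number, KO left of WT in each pair. Slc40a1 and the macrophage markers peak in number 3, and Tfrc and the epithelial markers peak in number 4, in both genotypes.

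By Pearson correlation over the 8 arrays, given as a description over 13428 named genes, the genes most like Hmox1 were Mindy2 (r = 0.990), Diaph2 (0.981) and Atp9b (0.979). Those most like Slc40a1 were Naa15 (0.985), Mis12 (0.980) and Rc3h2 (0.968). Las1l (0.993), Eps8l2 (0.992) and Car6 (0.991) were the most like Tfrc. The points share their arrays and, within a number, whatever the samples of that number share.

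Other genes of heme and iron metabolism, 54 on the list and 50 tested, showed no genotype call either. Of the 50, 28 were higher and 22 lower in KO samples, with a median difference of 0.03 and 0 at an unadjusted p under 0.05. Uros, an enzyme of heme synthesis, had the smallest p (0.116). It read -0.21, 0.40, 0.14 and 0.13 in KO samples, against -0.19, -0.17, -0.07 and -0.39 in WT samples, a difference of 0.32. Bach1, the heme-binding repressor of Hmox1, read -0.72, -1.18, -0.60 and -1.91 in KO samples, against -0.81, -1.18, 0.02 and -0.23 in WT samples, a difference of -0.55 that lay in numbers 3 and 4. Nfe2l2, which encodes the Hmox1 activator NRF2, read 2.85, 2.82, 3.53 and 2.25 in KO samples, against 2.47, 2.46, 3.19 and 2.17 in WT samples. It was higher in KO samples in all 4 pairs, with a mean difference of 0.29 on this probe and 0.19 on the other.

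The constitutive heme oxygenase Hmox2 differed by 0.18 and the heme transporter of lysosomes Slc48a1 by -0.11. Spic, the transcription factor of red pulp macrophages, differed by 0.10, and the heme exporter Flvcr1 by -0.16. Probes of 1 gene disagreed for Fech, which inserts iron into heme (-0.27 and 0.27), for Ciao1, of cytosolic iron-sulphur assembly (0.29 and -0.29), and for Aco1, the iron regulatory protein IRP1 (-0.14 and 0.67). Tfr2, the second transferrin receptor, was well above background on 4 of 8 arrays only, with a difference of 1.13 and an interval of -0.95 to 3.21.

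**Figure D5:**
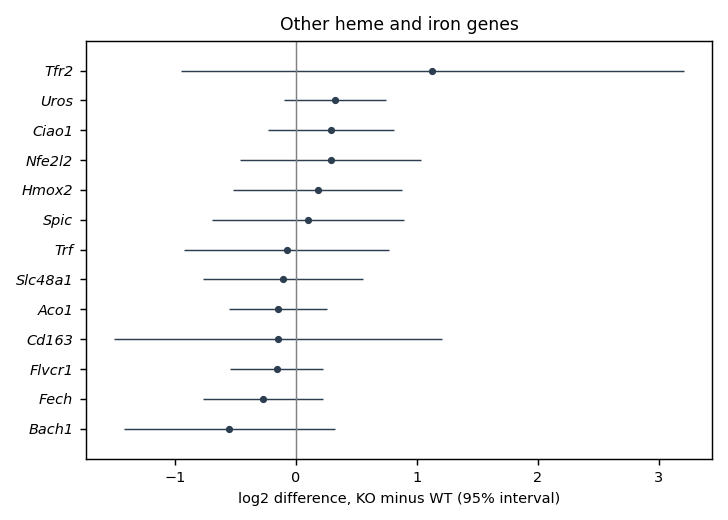
Difference of other heme and iron genes between genotypes, KO minus WT, on the log2 scale. The 95% intervals are from limma without a block (4 samples per genotype). Genes named only in the closing section are not drawn. Every interval drawn includes 0, and that of Tfr2 is the widest of them.

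Along the numbers, 9 of these 50 genes were called by the F test, against 7.25% of all genes, among them Cd163 and Trf. Without KO sample 2 it called 3, without WT sample 2 also 3, and without any other 1 sample 0. Cd163, the macrophage receptor for hemoglobin bound to haptoglobin, read 1.48, 2.07, 3.02 and 1.37 in KO samples, against 1.39, 2.45, 3.49 and 1.20 in WT samples. It peaked in number 3, as Slc40a1 and Hmox1 did. Trf, which encodes transferrin, read 4.97, 5.25, 4.47 and 5.81 in KO samples, against 4.96, 5.50, 4.55 and 5.78 in WT samples. It was highest in number 4 and lowest in number 3, the order of Tfrc.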

How the data were processed

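Total RNA of 8 sorted samples was labelled with Cy3, per the labels' protocols. The authors scanned 1-colour Agilent arrays and extracted spots with Feature Extraction 10.7.1.1 on mm9, per the file headers (10.5, per the submitters' processing notes). The deposited scanner files hold an intensity per spot, background-corrected per the file headers. From these, control spots and spots marked as outliers were dropped. The log2 of the deposited processed signal was averaged over a probe's spots, less the 75th percentile of its array. A probe was kept if at least 4 of the 8 arrays marked it well above background (27168 of 41174), and the brightest stood for its gene. Of all probes, 25089 were named through their accession from RefSeq and 16085 kept the accession. Motif windows are of GRCm38.p6, and no coordinates of the files' build were used.

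Genotypes were tested by limma 3.58.1 (lmFit, eBayes) under R 4.3.3, two-sided, at an adjusted p under 0.05 over all genes, without a block. The test was tested on simulated data. Its settings, the members and the lists were chosen with earlier results of these data known. By the naming rule the text names the 10 genes with every probe, the 6 other heme and iron genes with the smallest p plus Hmox2, Slc48a1, Bach1, Nfe2l2, Spic, Aco1, Flvcr1, Cd163 and Trf, the 3 genes most like Hmox1, Slc40a1 and Tfrc, and Atf3, Adgre1 and Ptprc. Cd6, Cd4, Cd3e, Ermap, Slc4a1, dim red cell markers, and the called genes in the closing section, were named after their values were seen. Some genes that the rule or the lists hold are not reported here.

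Across genes, KO and WT samples of the numbers 1 to 4 deviated together from their group means, at correlations of 0.30, 0.14, 0.70 and 0.51, all over the limit of 0.1, so in the data the numbers pair the samples. The pairs KO 4 with WT 2, at 0.15, and KO 2 with WT 4, at 0.14, were over it too. A table of processed intensity that the authors also deposited, of unstated scale and with column medians of 92.0 to 94.0, served as an alternative only. The other alternatives were normexp background correction, quantile normalization, scaling by bright probes, other filters on dim probes, array weights, a trended and robust eBayes, blocks for slide and for replicate number, single slides, the second probes, and leaving out each sample.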

Additional observations from a re-analysis of the deposited data

How the results depend on the processing

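Genotype called 0 of the 10 genes and 0 of the 50 others under every alternative run, and 0 genes of all except without KO sample 1, where it called 1, so the range over left-out samples was 0 to 1. The replicate block, with 0 genes called, changed no call. Hmox1, Blvrb and Ireb2 kept their direction throughout. With each sample left out Hmox1 ran from -0.46 (without KO sample 3) to -0.09 (without KO sample 4), Blvrb from 0.28 (without KO sample 3) to 0.55 and Ireb2 from -0.52 to -0.24 (without KO sample 2), and normexp gave -0.082 for Hmox1. With normexp, which moved the median of all genes to -0.14 and the split to 8054 genes higher and 12828 lower (10184 and 10698 otherwise), the difference turned to 0.065 for Blvra, 0.047 for Fth1, 0.19 for Ftl1 and 0.010 for Tfrc. Slc11a2 turned to 0.067 in the deposited table, where Tfrc was not analysed. On slide 1 alone Slc11a1 was -0.12 and Slc11a2 0.12, and on slide 2 alone Blvra was 0.0090, Slc40a1 -0.035 and Ftl1 0.090. Array weights gave -0.081 for Slc11a1. In the other genes the difference ran, with each sample left out, from -0.17 to 0.19 for Blvra, -0.24 to 0.46 for Slc40a1, -0.23 to 0.30 for Slc11a1, -0.21 to 0.14 for Slc11a2, -0.22 to 0.015 for Fth1, -0.13 to 0.12 for Ftl1 and -0.36 to 0.080 for Tfrc. The cause was not tested.

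The F test for number, added after the data were seen, called 1514 of all genes, 2 of the 10 and 9 of the 50 others. It called 345, 0 and 2 with normexp, 431, 0 and 2 with no filter, 2701, 5 and 14 with probes well above background on all 8 arrays, and 4000, 6 and 19 with a trended and robust eBayes. The deposited values gave 1 of the 9 genes tested there. With each sample left out it called 0 to 669 genes, 0 of the 10 each time and 0 to 3 of the others. Signal over background limits the dimmer Ireb2 probe, well above background on 6 of 8 arrays, and Tfr2, on 4 of 8.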

Other observations

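The other 7 of the 9 heme and iron genes called along the sample number were Lcn2, Nqo1, Steap4, Hp, Cp, Hfe and Flvcr2. Lcn2 encodes lipocalin 2, which binds iron-laden siderophores. It averaged 3.79, 4.85, 2.20 and 5.46 over both genotypes in numbers 1 to 4, lowest in number 3 and highest in number 4. Nqo1, a quinone reductase induced by NRF2, had the same order, with 2.68, 3.92, 1.77 and 4.64, and so had Steap4, a metalloreductase, with -3.37, -2.52, -4.11 and -1.61. Hfe, which encodes the hemochromatosis protein, was highest in number 3, with 1.72, 1.42, 2.33 and 0.61. Hp, which encodes haptoglobin, was the only one of the 9 highest in number 1, with 2.76, 1.21, 0.27 and 0.45. Cp, the copper enzyme ceruloplasmin that oxidises iron for export, read -0.07, 1.11, 0.72 and 1.74. Flvcr2, a heme and choline transporter, read -2.41, -2.83, -3.89 and -0.72. The marker sums given above for macrophage, epithelial and neutrophil genes differed between the same numbers, and Lcn2 is itself on the neutrophil list. Their part in these levels was not tested.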
